A study of Mus musculus with 12 samples.

Results

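CTCF binding was examined at the nuclear genes of the oxidative phosphorylation system, the enzyme complexes of the inner mitochondrial membrane that make most of the ATP of a liver cell. The genes were chosen by symbol alone: protein-coding genes whose symbols start with Ndufa, Ndufb, Ndufc, Ndufs, Ndufv, Uqcr, Cox4, Cox5, Cox6, Cox7, Cox8 or Atp5, together with Sdha, Sdhb, Sdhc and Sdhd, and without the Ndufaf assembly factors. This gave 88 of 21887 protein-coding genes, of which 41 belong by symbol to complex I, 4 to complex II, 8 to complex III, 18 to complex IV and 17 to complex V. Called peaks of all libraries that overlapped by at least 1 bp were joined into 76061 sites, and the 221 sites within 5 kb of either end of 1 of these genes are described here.

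Complex I takes electrons from NADH and complex II takes them from succinate. Complex III passes them on to cytochrome c and complex IV to oxygen, and complexes I, III and IV pump protons that drive the ATP synthase, complex V. Most of the genes are expressed in nearly all cells, at high levels in liver, where respiration supports gluconeogenesis and the oxidation of fatty acids during fasting. CTCF is a zinc finger protein that binds a long GC-rich motif, often at promoters, insulators and the anchors of chromatin loops.

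Livers came from male wild-type C57BL6/Ncrl mice of 3 to 4 months. Fed mice ate normal chow freely and gave liver at ZT16, in hours after lights on, whereas the other group had gone without food for 24 h and gave liver at ZT13. Food and collection time therefore cannot be told apart. Each state had 3 chromatin immunoprecipitation libraries made from whole snap-frozen liver with a CTCF antibody, and 3 input libraries per state were not used here. In whole liver a change in the makeup of cells and a change within cells cannot be told apart, and peak lists hold no marker expression against which the tissue label could be checked. Nothing in the labels ties each library to a mouse of its own, and the p-values below therefore rest on a spread between libraries that may be technical.

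The fed lists held 49030 to 74950 peaks and the starved lists 23926 to 30752, and the read depth behind them is unknown. Fed 3 was the longest list and alone held 18811 of the 76061 sites. A rank below is the percentile of a peak's score within its own list, with 100 the best. The score is the authors' own, and the sources used here do not name its type. Ranks place a site within its own list and do not measure a change between lists of different length, so comparisons were repeated after every list had been shortened to its top 23926 peaks, called lists of equal length.

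Promoter sequences are shown for 6 genes because they carry the clearest examples of the patterns below: 4 promoters with a strong CTCF peak in all 6 libraries, and the only 2 with a peak in all 3 fed and no starved library. Each runs 5′ to 3′ on the gene's strand from 250 bases before to 50 bases after the RefSeq start (GRCm38.p6, the build called mm10). Capitals mark stretches within 2 mismatches of the 14-base CTCF core consensus on either strand.
Ndufc1, chr3:51408906-51409205, minus strand: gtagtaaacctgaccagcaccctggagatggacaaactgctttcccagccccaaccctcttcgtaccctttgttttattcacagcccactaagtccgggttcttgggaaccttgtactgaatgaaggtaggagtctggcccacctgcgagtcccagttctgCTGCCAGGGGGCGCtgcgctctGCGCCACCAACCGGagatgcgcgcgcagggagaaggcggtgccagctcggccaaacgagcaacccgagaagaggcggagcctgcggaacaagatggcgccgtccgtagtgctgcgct
Atp5g2, chr15:102670998-102671297, minus strand: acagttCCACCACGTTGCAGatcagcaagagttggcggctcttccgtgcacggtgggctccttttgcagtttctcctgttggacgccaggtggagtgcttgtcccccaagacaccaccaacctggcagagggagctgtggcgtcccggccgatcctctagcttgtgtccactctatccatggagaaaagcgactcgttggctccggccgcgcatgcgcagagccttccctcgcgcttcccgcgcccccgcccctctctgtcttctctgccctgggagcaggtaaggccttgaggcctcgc
Ndufb10, chr17:24724374-24724673, minus strand: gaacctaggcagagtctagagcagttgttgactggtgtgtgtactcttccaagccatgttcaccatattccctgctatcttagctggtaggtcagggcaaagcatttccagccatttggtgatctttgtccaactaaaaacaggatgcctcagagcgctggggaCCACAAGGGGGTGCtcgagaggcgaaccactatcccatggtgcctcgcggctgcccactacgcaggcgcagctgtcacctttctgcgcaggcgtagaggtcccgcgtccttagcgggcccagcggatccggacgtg
Ndufb7, chr8:83566508-83566807, plus strand: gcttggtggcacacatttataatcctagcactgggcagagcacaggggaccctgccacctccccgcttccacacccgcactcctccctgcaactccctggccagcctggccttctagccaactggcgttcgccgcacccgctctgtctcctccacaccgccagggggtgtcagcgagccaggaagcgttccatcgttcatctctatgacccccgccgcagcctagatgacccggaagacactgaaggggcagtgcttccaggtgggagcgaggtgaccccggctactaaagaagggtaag
Cox6a1, chr5:115348909-115349208, minus strand: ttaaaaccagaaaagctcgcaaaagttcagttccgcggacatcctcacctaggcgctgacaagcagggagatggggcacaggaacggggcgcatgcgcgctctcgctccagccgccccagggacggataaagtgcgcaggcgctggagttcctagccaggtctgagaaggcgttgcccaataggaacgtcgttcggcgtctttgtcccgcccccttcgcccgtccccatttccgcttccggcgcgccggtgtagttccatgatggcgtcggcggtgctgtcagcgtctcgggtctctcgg
Atp5g3, chr2:73911277-73911576, minus strand: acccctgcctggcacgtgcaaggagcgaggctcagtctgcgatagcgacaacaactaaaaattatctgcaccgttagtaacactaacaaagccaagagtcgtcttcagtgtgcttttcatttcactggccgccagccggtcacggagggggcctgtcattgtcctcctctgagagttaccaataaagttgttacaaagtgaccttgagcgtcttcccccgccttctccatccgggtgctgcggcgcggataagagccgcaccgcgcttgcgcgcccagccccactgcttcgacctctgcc

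Of the 6, the promoters of Ndufc1, Atp5g2 and Ndufb10 held such a stretch, and those of Ndufb7, Cox6a1 and Atp5g3 held none in this window. The Ndufb7 window does hold ccgccagggggtgtc, which shares the letters GCCAGGGGG with a marked stretch of Ndufc1 but falls outside the limit of 2 mismatches. The lack of a marked stretch at Ndufb7 therefore depends on this limit and does not show that a CTCF motif is absent. In Ndufc1 the stretches lay 89 to 76 and 67 to 54 bases before the start, in Ndufb10 86 to 73 bases and in Atp5g2 244 to 231 bases before it. RefSeq promoter windows were found for 71 of the 88 members. The consensus matched 11 of their 76 windows (14.5%), against 16.3% of 21263 windows of all genes. Among windows with a peak in all 6 libraries it matched 7 of 14 for members and 56.4% for all genes.

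A shorter core motif of 12 bases was also searched on both strands: CC, 3 bases of any kind, AG, 2 bases of any kind and GGC. It lay in 11 of 76 member windows (14.5%), against 9.88% of all windows. Among windows with a peak in all 6 libraries it lay in 4 of 14 for members (28.6%) and 37.2% for all genes. These 4 were the windows of Ndufa6, Ndufv1, Ndufv2 and Uqcrc1. Among windows with no peak in any library the motif lay in 6 of 42 for members (14.3%) and 5.67% for all genes. Ndufa6 carried CCACCAGGAGGC, and Uqcrc1 carried CCAACAGGGGGC, the only member match to the stricter form in which the free bases after AG are both G. A match is a description of the letters and shows neither a site nor its use.

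A CTCF site lay near most of the subunit genes in fed liver. At least 1 site was found at 79 of 88 members (89.8%, exact 95% interval 81.5 to 95.2), and 63 (71.6%, 61.0 to 80.7) had a fed site, meaning one called in each of the 3 fed libraries. Among all 21887 protein-coding genes, 15143 had at least 1 site and 57.1% had a fed site. Other housekeeping groups had a fed site at 74.4% of 78 mitochondrial and 78.8% of 85 cytosolic ribosomal protein genes. For 51 proteasome subunit genes the share was 80.4%. At least 1 site was found at 72, 78 and 48 genes of these groups, in the same order. The intervals cover counting error only, and neighbouring genes share sites. Of the 121 fed sites of the members, 85 (70.2%) also lay within 5 kb of another protein-coding gene.

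Fewer of the genes had a site after starvation in the lists as deposited. In the fed libraries 70, 65 and 78 of the 88 genes had a site, and in the starved libraries 49, 46 and 51. Every starved library was below every fed library, with 71.0 ± 6.56 genes in fed and 48.7 ± 2.52 in starved liver (SD, n = 3 each), and the two-sided exact permutation test gave p = 0.1, which is as low as a test of 3 against 3 can go. The number of member sites called was 145, 129 and 217 in fed and 79, 63 and 77 in starved liver, again without overlap (exact permutation p = 0.1). Fed 3 alone held 69 of the 72 member sites that were called in 1 library, and 32.6% of member sites were called in 1 library against 27.1% of all sites.

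With the 5 kb window, all genes showed a difference of like size, and lists of equal length showed a difference of 0 at the members. The share of members with a site over the share of all protein-coding genes with one, on a log2 scale, was 0.36, 0.33 and 0.37 in fed and 0.26, 0.49 and 0.38 in starved libraries. These groups overlapped (exact permutation p = 0.7). In lists of equal length 46, 45 and 46 members had a site in fed and 46, 46 and 45 in starved liver, a difference of 0 (45.7 ± 0.577 in each, SD, n = 3, exact permutation p = 1). The number of member sites in these lists was 62, 61 and 61 in fed and 62, 63 and 62 in starved liver. Both comparisons depended on the window: with 20 kb the relative share was 0.27 in fed and 0.21 in starved liver, the opposite direction, and with 1 kb the lists of equal length gave means of 22 fed and 24 starved members, each without overlap (exact permutation p = 0.1). The relative share also separated the groups, with starved higher, among peaks scored at or above the overall median (0.39 and 0.69) and without starved 1 (0.35 and 0.44), each at an exact permutation p = 0.1.

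**Figure D1:**
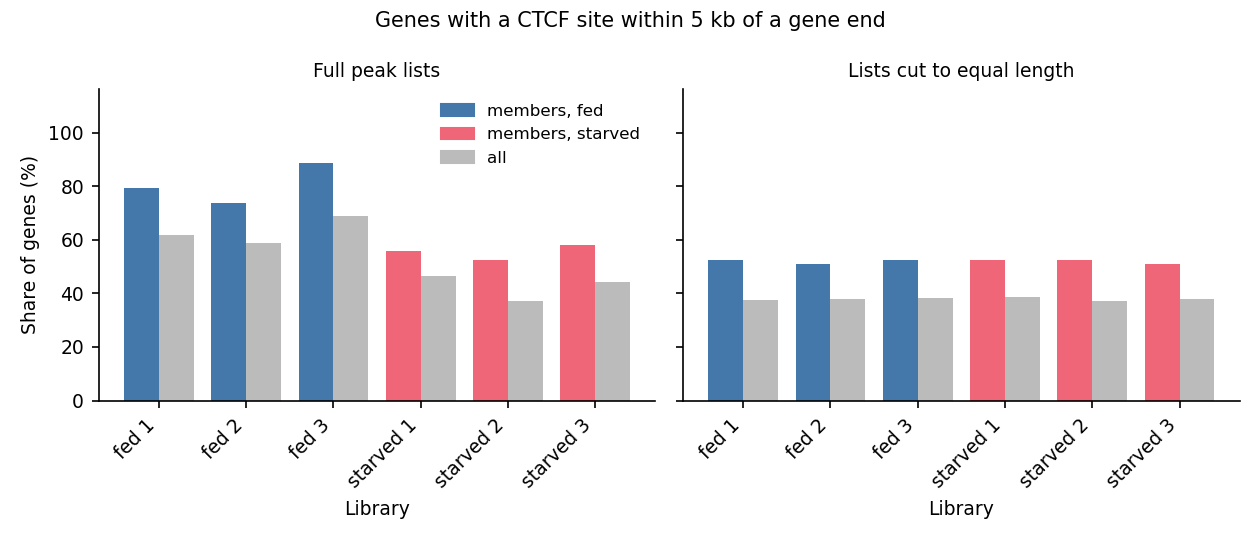
Share of genes (%) with a CTCF site within 5 kb of a gene end in each library, for the 88 subunit genes (blue, fed; red, starved) and for all protein-coding genes (grey), from full lists on the left and lists of equal length on the right. In the full lists the members range from 73.9% to 88.6% in fed and from 52.3% to 58.0% in starved libraries, and in lists of equal length all 6 libraries lie at 51.1% or 52.3%.

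The fed sites were followed one by one into the starved libraries. A peak in each of the 3 starved libraries was found at 61 of the 121 member fed sites (50.4%, against 49.3% over all fed sites). Another 21 had a peak in 1 or 2 starved libraries, and 39 (32.2%, against 29.1%) had none. Of the 16355 fed sites within 5 kb of any protein-coding gene, 48.4% were called in all 3 starved libraries and 27.7% in none. By gene, 45 of the 63 members with a fed site had one called in all 6 libraries (71.4%, background 63.4%), and 12 had no starved peak at any fed site (19.0%, background 16%). Both shares are near those of all genes. No member site was called in starved liver alone. Such sites were rare everywhere: of all 76061 sites, 0 were called in all 3 starved and no fed library. Starved 1, starved 2 and starved 3 alone held 60, 1 and 13 of all sites. Of the 100 member sites called in 1 or 2 fed libraries, 3 had a starved peak, all in starved 1, near Uqcr10, Ndufa7 and Atp5a1. The like share over all sites is not given here.

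At complex I, 28 of 41 genes (68.3%, against 57.1% of all protein-coding genes) had a fed site. Of these, 20 (71.4%, against 63.4%) had one called in all 6 libraries. Ndufc1, a small subunit of the membrane arm, had the best-ranked promoter site of all members. It covers chr3:51408395-51409501 and had ranks of 99.3, 100 and 96.3 in fed and 98.0, 99.8 and 98.6 in starved libraries. Its peak spanned the start of the gene in every library, from 1012, 857 and 1107 bp wide in fed to 788, 499 and 643 bp in starved liver. The groups of ranks overlapped, so the site stood at the top of both sets of lists.

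Ndufa4l2, a relative of Ndufa4 that is induced by hypoxia, had its best site inside the gene (chr10:127511761-127513543). Its ranks were 99.3, 100 and 96.5 in fed and 99.7, 99.5 and 99.4 in starved libraries. Fed and starved ranks overlapped, and the site stood near the top of all 6 lists.

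Promoters of other complex I genes were also occupied in both states. At Ndufb7, an accessory subunit of complex I, the site over the start (chr8:83566229-83567092) ranked 91.6, 99.7 and 96.4 in fed and 97.9, 97.8 and 96.4 in starved libraries. At Ndufb10, another accessory subunit of the membrane arm, the promoter site (chr17:24723787-24725187) ranked 99.2, 95.9 and 93.8 in fed and 78.0, 91.0 and 94.9 in starved libraries. Ndufab1, the mitochondrial acyl carrier protein, had ranks of 89.0, 95.8 and 99.7 against 93.5, 96.9 and 95.3 over its start. Fed and starved ranks overlapped at all 3 promoters.

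Ndufa6 and Ndufv2 carried the core motif at such promoters. The Ndufa6 site (chr15:82353983-82354927) ranked 93.8, 88.1 and 98.3 in fed and 87.8, 98.9 and 92.2 in starved libraries. That of Ndufv2, which holds an iron-sulphur cluster of the NADH-oxidising module, ranked 87.3, 89.4 and 88.4 in fed and 73.5, 61.7 and 77.3 in starved libraries (chr17:66101595-66102315). The starved ranks at Ndufv2 were all lower than the fed ranks in these full lists, and those at Ndufa6 overlapped with them. Ndufv2 was not among the 3 member sites with every starved rank below every fed rank in lists of equal length.

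Beside these strong sites the complex I genes had weak ones that were called in fed liver alone. Of the 54 complex I fed sites, 19 (35.2%) had no starved peak, and 5 genes had no starved peak at any fed site. Ndufs3, a core subunit of the peripheral arm, had such a site beyond its end (chr2:90889474-90890183) with fed ranks of 38.5, 27.7 and 55.5. Ndufs8, which carries iron-sulphur clusters, had a pair of them at mean fed ranks of 26.5 and 11.1. Ndufs4, a subunit whose loss causes a Leigh-like disease in mice, had its only fed site past the gene's end (chr13:114283251-114283539) with ranks of 8.82, 25.0 and 33.6. The Ndufs3 and Ndufs4 sites were in no fed list of equal length. Of the 60 member sites in all 3 fed lists of that length, 0 were missing from every starved list.

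The 2 other complex I genes of this kind were Ndufa11 and Ndufa4, the latter now assigned to complex IV. The Ndufa11 site ranked 11.2, 27.0 and 40.5, and the Ndufa4 site 1.93, 3.35 and 42.8. The Ndufa4 site also overlaps the promoter of the neighbouring gene Phf14. The fed sites of these 5 genes had mean ranks between 11.1 and 40.5, and fed 3 gave the highest rank at all of them except the weaker Ndufs8 site. The Ndufs family stood at 3 of 6 genes with a fed site and no starved peak, against 2 of 11 in the Ndufa family and 0 of 6 in the Ndufb family, counts too small to order.

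Further fed-only sites lay at complex I genes that kept another site in starved liver. These were Ndufa6, Ndufa7, Ndufa12, Ndufa13, Ndufb7, Ndufb9, Ndufb10, Ndufs1, Ndufs7 and Ndufv2, and also Ndufv3, whose other fed sites were called in starved 1 or starved 3 alone. Ndufb10 shows the contrast within 1 gene. Its promoter site was called in all 6 libraries, and sites on either side of it, at mean fed ranks of 45.7 and 43.3, were called in the 3 fed libraries alone.

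Complex II, succinate dehydrogenase, is shared with the citric acid cycle and has 4 subunits here. Sdhb, the iron-sulphur subunit, had 4 fed sites, of which 3 were called in all 6 libraries, and the best lay before its start (chr4:140957533-140958715) with ranks of 99.2, 96.4 and 97.3 in fed and 97.3, 85.2 and 98.3 in starved liver. The fourth, inside the gene, was called in fed liver alone at ranks of 17.3, 18.6 and 49.8. Sdhd, a membrane anchor, had a site in all 6 libraries (chr9:50593426-50594155) with ranks of 93.2, 74.2 and 82.9 in fed and 63.0, 56.3 and 72.8 in starved liver. Mean ranks of this site in lists of equal length were 59.2 in fed and 58.3 in starved liver, with overlapping groups. The Sdhd promoter, shared with Timm8b, had a peak in all 3 fed libraries and in starved 1 and starved 3.

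The other complex II genes had 1 site each within 5 kb, and neither site was called in all 3 fed libraries. Sdha, the flavoprotein that oxidises succinate, had 1 site, over its promoter, with ranks of 15.6 in fed 1 and 53.0 in fed 3. Sdhc, the other membrane anchor, had 1 site inside the gene, with ranks of 30.9 in fed 2 and 32.6 in fed 3. Neither had a starved peak within 5 kb. Within 20 kb each of the 6 libraries had at least 1 site near each gene, which need not be the same site in every library.

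At complex III, 7 of 8 genes (87.5%, against 57.1% of all protein-coding genes) had a fed site. Of these, 6 (85.7%, against 63.4%) had one called in all 6 libraries. Uqcrfs1, the Rieske iron-sulphur protein, had the best-ranked site of all members in fed liver. It lies outside the gene before its start (chr13:30548673-30549622), and its ranks were 99.7, 96.7 and 99.6 in fed and 97.7, 88.3 and 88.8 in starved libraries. Uqcrc1, a core protein of the complex, had a site over its promoter (chr9:108936164-108936993) with ranks of 80.4, 94.9 and 86.7 in fed and 76.6, 60.8 and 67.7 in starved libraries. Mean ranks of the Uqcrc1 site in lists of equal length were 67.3 in fed and 63.5 in starved liver, with overlapping groups.

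Uqcrh, the hinge protein of the complex, had the most fed-only sites of any member. Of its 4 fed sites, 3 lay inside the gene and had no starved peak, at mean fed ranks of 24.1, 43.2 and 50.9, and the other, before the start (chr4:116075370-116076734), was called in all 6 libraries. Uqcr11, Uqcrc1 and Uqcrc2 had 1 fed-only site each. Uqcrq had no fed site, and 3 of its 4 sites were in fed 3 alone.

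At complex IV, cytochrome c oxidase, 13 of 18 genes had a fed site, 9 with one called in all 6 libraries and 4 with no starved peak. Cox4i1, the general isoform of the regulatory subunit IV, had a site past the gene (chr8:120678061-120679041) with ranks of 98.9, 98.3 and 98.1 in fed and 98.1, 79.0 and 98.1 in starved libraries. Its counterpart Cox4i2, an isoform of lung, had a site at ranks of 96.1, 98.9 and 96.3 against 88.6, 96.7 and 97.5. Cox8b, an isoform of heart and muscle, had a site before its start at ranks of 98.4, 96.4 and 96.3 against 95.5, 86.4 and 93.6. Mean ranks of the Cox8b site in lists of equal length were 92.5 in fed and 90.9 in starved liver, with overlapping groups.

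Sites were also found at isoforms known from other tissues. Of Cox4i2, Cox6a2, Cox6b2, Cox7a1, Cox7b2, Cox8b, Cox8c and Ndufa4l2, the last induced by hypoxia, 6 of 8 had a fed site and 5 had one in all 6 libraries. Over all protein-coding genes 57.1% had a fed site, and 63.4% of those had one in all 6. The median mean fed rank of their 7 fed sites was 91.0, and 61.8 over all 121 member fed sites. This list was put together with earlier results known and is given as a description.

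The 4 complex IV genes with no starved peak at a fed site were Cox6c, Cox7a2, Cox7a2l and Cox7b2. Cox7a2 is the form of subunit VIIa found in liver, and its fed site, inside the gene (chr9:79767449-79767751), had ranks of 22.9, 3.49 and 37.3. Cox7a2l, a factor in joining complexes III and IV into supercomplexes, had a site inside the gene that ends 45 bp from its start (chr17:83513865-83514288), at 5.46, 21.1 and 50.1, and only its peak in fed 3 reached the promoter window. The best ranked of the 4 was that of Cox7b2, a testis isoform, at 51.9, 37.4 and 59.7. Cox7b also had 1 fed-only site, beside 2 sites called in all 6 libraries.

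At complex V, the ATP synthase, 13 of 17 genes had a fed site, 8 with one called in all 6 libraries and 3 with no starved peak. The genes Atp5g1, Atp5g2 and Atp5g3 differ here although they encode the same mature protein, subunit c of the rotor ring. Atp5g2 had a promoter site (chr15:102670760-102672002) with ranks of 99.0, 97.5 and 98.9 in fed and 91.0, 98.0 and 97.1 in starved libraries. Atp5g1 had a fed site inside the gene (chr11:96075156-96075554) at ranks of 19.9, 2.77 and 24.5 and no starved peak. Atp5g3 had a fed site at its promoter (chr2:73911326-73911669) at 9.34, 1.68 and 41.9, another past its end at 30.2, 6.20 and 34.9, and no starved peak.

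Atp5pb, subunit b of the peripheral stalk, was the third gene of complex V with no starved peak, with fed sites at mean ranks of 32.0 and 30.1. Atp5mpl, a small subunit of the membrane part, had a site over an end of the gene (chr12:111966597-111967569) at ranks of 96.4, 99.7 and 95.8 in fed and 99.4, 93.8 and 99.1 in starved libraries. Atp5k, subunit e, had a promoter site at 90.5, 90.8 and 95.3 against 83.8, 91.6 and 88.0. Atp5a1 and Atp5l, subunits alpha and g, each had 1 fed-only site beside sites found in starved liver.

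No site of any kind was found within 5 kb of 9 members: Ndufa1, Ndufa10, Ndufb2, Ndufb4b and Ndufb4c in complex I, Cox5b, Cox7c and Cox8c in complex IV and Atp5e in complex V. Another 16 had sites, but none in all 3 fed libraries. Of all 21887 protein-coding genes, 15143 had a site and 12499 had one in all 3 fed libraries. Both sites of Atp5j, in fed 3 alone at ranks of 20.8 and 13.7, overlap its promoter windows and also the neighbouring gene Gabpa, a regulator of respiratory genes.

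Whether a fed site was called after starvation went with its rank in fed liver, and the members' shares in each band of rank were near those of all fed sites. All 43 member fed sites with a mean fed rank above 80 were found in every starved library, as were 11729 of 11733 over all fed sites, and between 60 and 80 it was 15 of 18 (83.3%, against 82.2% of all fed sites). Between 40 and 60, 3 of 22 were found in every one (13.6%, against 10.1%) and 8 of 22 in none (36.4%, against 35.5%). No starved peak was found at 25 of 31 between 20 and 40 (80.6%, against 81.3%) and at 6 of 7 below (85.7%, against 92.0%). The medians of the mean fed rank were 87.2 for member fed sites called in all 6 libraries (81.1 over all such sites) and 28.6 for those called in 0 starved libraries (33.4). By place, 20 of the 39 fed-only sites lay inside or overlapping the gene, 15 outside it and 4 over a promoter window. Place was set by the joined site, so the peak of a single library may not reach the window. Of the 61 sites in all 6 libraries, 17, 28 and 16 did. Places were counted for member sites alone, so these counts cannot be read as particular to the members. These counts come from the full lists and were not repeated by rank band or place in lists of equal length.

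**Figure D2:**
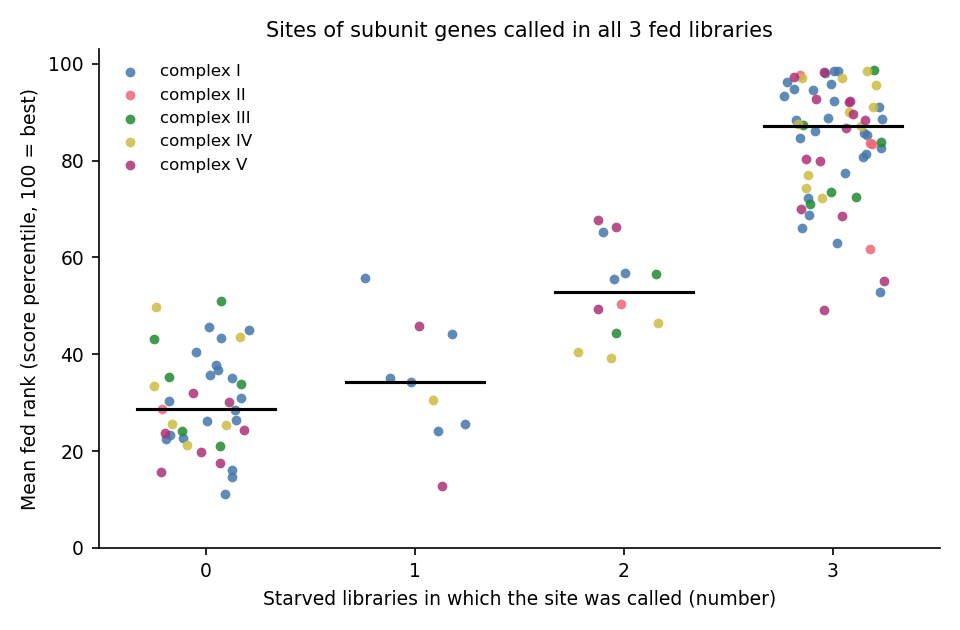
Mean fed rank (score percentile within the list, 100 the best) of the 121 member sites called in all 3 fed libraries, by the number of starved libraries in which each was called; points are sites coloured by complex, shifted sideways for legibility, and bars are medians. Sites with no starved peak lie between 11.1 and 50.9 and sites called in all 3 between 49.2 and 98.7.

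Ranks were then compared in lists of equal length. Of 60 member sites in all 3 fed lists of this length, 55 (91.7%) were in all 3 starved lists against 88.9% of all such sites, and 0 were missing from all 3, which allows a share of up to 5.96% (exact 95% interval). Over the 55 sites the median difference in mean rank, starved minus fed, was 0.8 points against −0.2 over all 19289 sites, with 23 lower and 32 higher. Without starved 3 the median was −1.0 points. At 3 sites (5.45%) every starved rank was below every fed rank, against 7.77% of all sites, and at 2 (3.64%) every starved rank was above, against 7.26%. No member site passed the exact permutation test with Benjamini-Hochberg adjustment over the 19289 sites, where the lowest adjusted p was 0.665, and 3 libraries against 3 cannot go below an unadjusted 0.1.

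The 3 sites with lower starved ranks were at Cox6a1, Atp5d and Ndufa7. Cox6a1 encodes the form of subunit VIa found in liver, and its site runs over the gene to the start (chr5:115347219-115348990). Its ranks in lists of equal length were 85.3, 89.0 and 95.1 in fed and 77.9, 49.5 and 75.2 in starved libraries, a difference of −22.3 points. Without starved 2, the shortest list, that difference was −13.2 points. At Atp5d, the delta subunit of the central stalk, a site past the gene and over the promoter of Midn (chr10:80147660-80149267) had ranks of 85.5, 85.1 and 73.2 against 71.4, 60.3 and 60.7.

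At Ndufa7, a small accessory subunit of complex I, the ranks were 87.5, 82.8 and 71.9 in fed and 71.6, 65.4 and 69.4 in starved libraries (chr17:33826773-33827658), so that the nearest fed and starved libraries almost met. The 2 sites with higher starved ranks were at Ndufa2 and at Cox6a2, the muscle isoform of subunit VIa. The Ndufa2 ranks were 62.5, 59.4 and 37.2 in fed and 72.9, 67.9 and 66.4 in starved libraries, and those of Cox6a2 were 74.8, 67.6 and 62.5 against 75.3, 78.5 and 80.0. The Ndufa2 difference of 16 points was 8.1 without fed 3, and in the full lists both differences had the opposite sign, −8.1 at Ndufa2 and −6.1 at Cox6a2. The site over the start of Atp5c1, the gamma subunit, and of its neighbour Kin was the 1 member site in all 3 starved and no fed list of equal length, at ranks of 18.9, 7.36 and 4.75, as were 104 of all 76061 sites. In the full lists it was called in all 6 libraries.

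**Figure D3:**
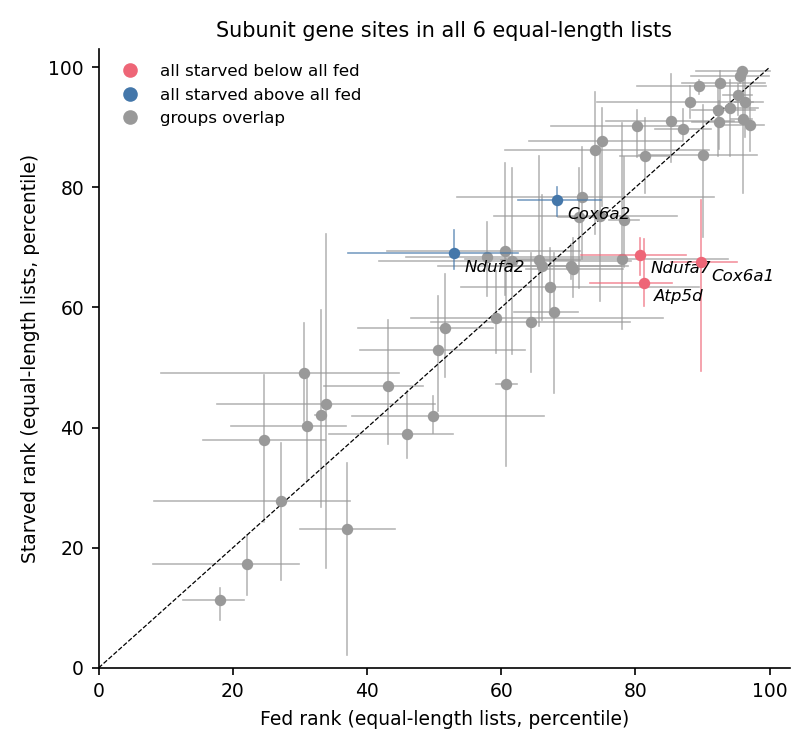
Rank in lists of equal length (score percentile) at the 55 member sites found in all 6 of them, fed on the horizontal and starved on the vertical axis; points are means of 3 libraries, lines run from the lowest to the highest library, and the dashed line marks equal ranks. The 3 red sites have all starved ranks below all fed ranks, the 2 blue sites the reverse, and at the other sites the groups overlap.

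Promoters of the subunit genes were compared with those of all genes. A peak overlapped the promoter window of 19, 19 and 32 of 71 members in fed and of 17, 13 and 15 in starved libraries. The groups did not overlap, at 23.3 ± 7.51 and 15.0 ± 2.0 promoters (SD, n = 3 each, two-sided exact permutation p = 0.1), and the difference of −8.33 promoters was −4.00 without fed 3. Of the 71 promoters, 18 (25.4%) had a peak in all 3 fed libraries against 19.3% of 17492 promoters, and 13 (18.3%, exact 95% interval 10.1 to 29.3) had one in all 6 libraries against 7.15%.

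Relative to all genes, the members held a larger share of occupied promoters in starved than in fed libraries when the promoter window was counted, and the groups overlapped when any site within 1 kb of a gene end was counted. Over all genes 23.6%, 21.8% and 36.0% of promoters had a peak in fed and 13%, 7.48% and 10.9% in starved libraries. The log2 ratio of the member share to the share of all genes was 0.18, 0.30 and 0.32 in fed and 0.88, 1.29 and 0.95 in starved libraries. Every starved library was above every fed library, a difference of 0.77 (exact permutation p = 0.1, the smallest possible). Counting any site within 1 kb of either gene end in place of the window gave means of 0.32 in fed and 0.39 in starved libraries, a difference of 0.07 (exact permutation p = 0.5). In lists of equal length the ratio was 0.82, 0.93 and 0.83 against 1.04, 1.29 and 1.23, a difference of 0.33 (exact permutation p = 0.1), while the member promoters themselves numbered 12, 13 and 14 against 14, 13 and 14. With the 11963 best peaks of each list the difference was 0.18 and the groups overlapped (exact permutation p = 0.2).

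This ratio was added once values had been seen. The share of promoters with a peak in all 6 libraries was also above that of all genes in other housekeeping groups, at 18.5% among cytosolic ribosomal, 15.9% among mitochondrial ribosomal and 14.0% among proteasome genes. The windows of the members held a median of 19.0 CpG dinucleotides against 13 over all windows, and those of all genes with a peak in all 6 libraries 23.0. Starved peaks were narrower: at the 61 member sites called in all 6 libraries the median width was 801, 725 and 887 bp in fed and 528, 278 and 373 bp in starved libraries. The part of CpG content and peak width in the ratio was not tested, apart from peaks trimmed to 200 bp, which gave a difference of 0.75.

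**Figure D4:**
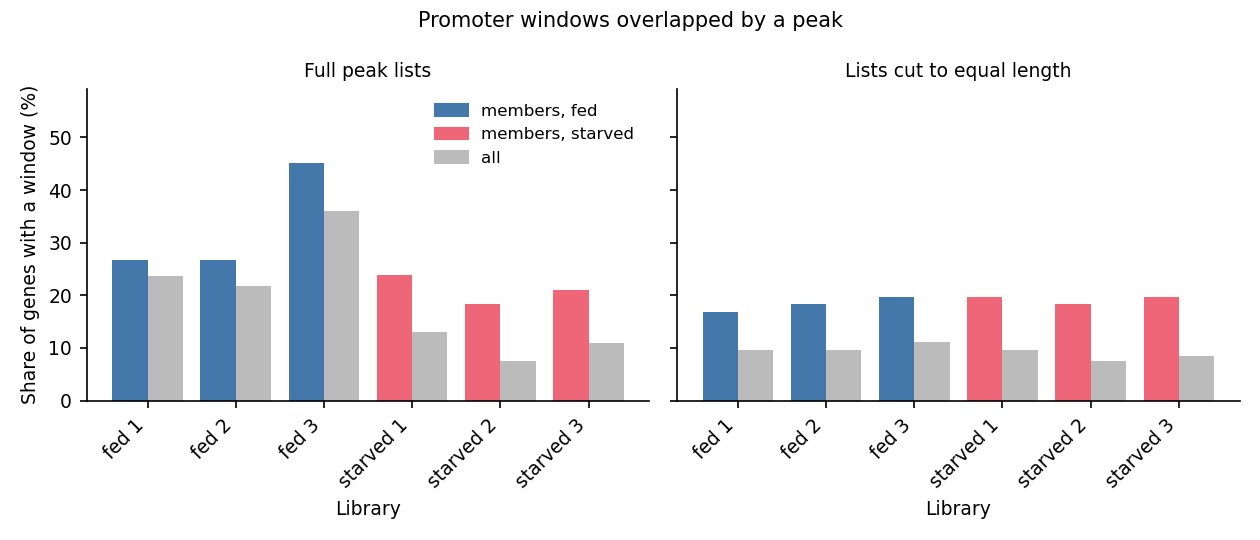
Share of genes (%) with a peak over the promoter window in each library, for the 71 subunit genes with a window (blue, fed; red, starved) and for all 17492 genes with one (grey), from full lists on the left and lists of equal length on the right. The members stand above all genes in all 6 libraries of both panels, with 18.3% to 23.9% against 7.48% to 13% in the starved full lists.

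The 13 promoters with a peak in all 6 libraries belonged to 9 of 35 genes with a window in complex I, 1 of 5 in complex III and 3 of 15 in complex V. Complexes II and IV, with 3 and 13 such genes, had none. Of all promoters 7.15% had such a peak, and the counts by complex are too small to order. The only 2 member promoters with a peak in all 3 fed and no starved library were those of Cox6a1 and Atp5g3, shown above (2.82% of 71, against 5.98% of all promoters). At Cox6a1 the peak of the strong site reaches into the window only in fed 3, and a separate weaker peak before the start ranked 43.7, 31.5 and 55.4 in the fed libraries. Of the 71 promoters, 39 had no peak in any library. Counted by window, 42 of 76 member windows and 13852 of 21263 windows of all genes had none.

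Other genes of the respiratory pathway were taken from 4 lists: assembly factors, coenzyme Q and cytochrome c genes, regulators of mitochondrial biogenesis and the citric acid cycle. A fed site was found at 40 of 52 assembly factors (76.9%), 11 of 16 coenzyme Q and cytochrome c genes (68.8%), 17 of 20 regulators (85.0%) and 16 of 19 citric acid cycle genes (84.2%), against 57.1% of all protein-coding genes. Of these, 5 (12.5%), 2 (18.2%), 1 (5.88%) and 4 (25.0%) genes had no starved peak at any fed site, against 16% of all genes with a fed site. The fed sites with no starved peak made up 19.7%, 30.4%, 14.8% and 39.3% of the fed sites of the 4 lists, against 29.1% of all fed sites and 32.2% at the subunit genes. Among fed sites within 5 kb of any protein-coding gene the share was 27.7%.

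Strong sites in both states were found among the assembly factors. Sco2, a copper chaperone of complex IV, had a site over its promoter (chr15:89372958-89375332) with ranks of 96.4, 98.4 and 99.2 in fed and 96.4, 81.3 and 95.1 in starved libraries. Ndufaf4, which helps to build complex I, had one at 96.2, 98.3 and 95.2 against 98.6, 99.2 and 99.8. Fmc1, an assembly factor of the ATP synthase, and Taco1, the translational activator of the mitochondrial Cox1 message, followed with best mean fed ranks of 95.3 and 95.2.

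Regulators and electron carriers ranged widely. Gabpb2, a partner of Gabpa, had a promoter site at 95.4, 97.6 and 96.4 against 78.0, 98.1 and 97.6. Tfam, which packages and transcribes mitochondrial DNA, had a site inside the gene (chr10:71225665-71226630) at 97.9, 97.1 and 88.8 in fed and 79.1, 74.3 and 74.4 in starved libraries. Ppargc1a, the coactivator of mitochondrial biogenesis and of the fasting response in liver, had a weaker site in all 6 libraries (chr5:52115836-52116687), at 57.4, 56.4 and 66.1 against 8.57, 4.66 and 10.1. Ranks of these pathway genes are from the full lists, and those in lists of equal length are not given here. Nrf1, a transcription factor of respiratory genes, had a promoter site in all 3 fed libraries and in starved 1 and starved 3.

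Cycs, which encodes cytochrome c, had a promoter site in all 6 libraries at 57.4, 48.1 and 69.1 against 50, 6.13 and 29.9, and another site in the 3 fed libraries alone at a mean fed rank of 22.5. Cyc1, the cytochrome c1 of complex III, had 2 fed sites, called in 2 and in 1 of the starved libraries. Gabpa had only the sites it shares with Atp5j.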

How the data were processed

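The files were CTCF ChIP-seq peak lists of 3 fed and 3 starved mouse liver libraries. Each deposited list gives positions and a score per peak, made by the authors. The submitters' processing notes name build mm10 and these tools, without saying what each did: MACS2, HOMER, BWA 0.7.5a, FastQC, bedtools 2.17 and SAMtools. Read depth is unknown, so precision rests on the number of libraries.

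Peaks that shared 1 bp or more formed a site. Gene ends and promoter windows came from RefSeq (GRCm38.p6), with positions counted from 1, and members without a window were left out of promoter counts. Scores were ranked within each list. Groups were compared by two-sided exact permutation over 20 labellings, and shares have exact binomial (Clopper-Pearson) 95% intervals. Per-site p-values were adjusted by the Benjamini-Hochberg method.

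The rule for names took members with a fed-only site and the 10 best-ranked sites in all 6 libraries. It added sites with non-overlapping ranks in lists of equal length, and up to 8 promoters occupied in all 6. Sdha to Sdhd, Cyc1, Cycs, Ppargc1a, Tfam, Nrf1 and Gabpa were also in it. The last part was the 5 best-ranked genes of the assembly factor, coenzyme Q and regulator lists, without the citric acid cycle. Further genes were named after their values were seen. One gene that the rule names is not reported here. Of 108 listed pathway genes, 107 matched RefSeq. The members and lists were chosen with earlier results of these data known, and the promoter ratio and the consensus were added later. Site counting was tested on simulated data. Work was done in Python 3.11.15 (matplotlib 3.10.9, scipy 1.17.1, numpy 2.4.6, pandas 2.3.3).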

Additional observations from a re-analysis of the deposited data

How the results depend on the processing

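Differences are starved minus fed. In the full lists the differences in member genes (−22.3), member sites (−90.7) and occupied promoters (−8.33) kept their direction under all the alternatives run except shorter lists. In lists of equal length these were 0, 1 and 0.667, and with the 11963 best peaks the genes and sites gave 1.67 and 1.33. The relative share of genes (0.03) was −0.06 with a 20 kb window, where the groups no longer overlapped (exact permutation p = 0.1), and 0.00 in lists of equal length, and ranged from −0.03 to 0.08 on leaving out 1 library, the lowest without starved 2. The difference of 0 genes in lists of equal length was 2 with 1 kb, without overlap (exact permutation p = 0.1), −1 with 20 kb, 0.667 with scores at or above the overall median of 30.4, 1.67 with the 11963 best peaks and −22.3 in full lists. Where lists were shortened, fewer peaks entered by construction, and the cause of the other changes was not tested.

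The counts of member genes with no starved peak (12), fed-only sites (39) and sites in all 6 libraries (61) were 6, 12 and 37 with the score limit, 0, 0 and 32 with the 11963 best peaks, and 0 for the first pair in lists of equal length. With 1 kb the sites numbered 17 and 25, with 20 kb 72 and 122. With at least 2 of 3 libraries, 20 genes and 64 sites had no starved peak. Leaving out 1 library gave 12 to 18 genes, 39 to 57 fed-only sites and 61 to 71 in all remaining libraries. The median rank difference of 0.8 points became −15.6 in full lists, and those at Cox6a2 and Ndufa2 became −6.1 and −8.1. Trimming peaks to 200 bp left no value at Cox6a1 and Atp5d, and the score limit and the 11963 best peaks left none at Cox6a1 and Ndufa2. Of the values for single genes, single sites and the motif, 655 kept their sign or stayed within 1.5 times, 85 moved by more and the 2 full-list values at Cox6a2 and Ndufa2 reversed. The promoter ratio (0.77) ranged from 0.07 to 0.89. The lowest, with any site within 1 kb of a gene end counted in place of the window, had overlapping groups (exact permutation p = 0.5), as did 0.18 with the 11963 best peaks (p = 0.2).

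The labels do not say whether the shared replicate numbers pair the libraries. Same-numbered libraries had deviations correlated at 0.01, −0.03 and 0.01 over 19289 sites, and libraries of other numbers at −0.03 to 0.02. These values show no shared deviation in rank, and cannot show whether libraries were handled in pairs. With the replicate block the paired sign-flip test, an exact permutation, gave p = 0.25 for genes, sites and promoters (differences of −22.3, −90.7 and −8.33), the smallest it allows.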
